A study of Mus musculus with 106 samples.

Results

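The high-fat response of the liver of DBA/2J males was read from 6 libraries, which are 2 of the 36 groups of strain, sex and diet in the series, with 3 from males on a high-fat diet (HFD) and 3 from males on a chow diet (CD). They were chosen by the strain, sex and diet in their labels, and all 14330 genes of the count table were compared. DBA/2J is an inbred laboratory mouse strain. The series measured liver mRNA in females and males of 9 inbred strains on these diets, with 1 library per mouse. All mice ate freely and were 21 weeks old at collection, and the HFD was given from 8 weeks of age. The CD took 6% of its energy from fat, 20% from protein and 74% from carbohydrate, and the HFD took 60% from fat, 20% from protein and 20% from carbohydrate. Livers were perfused and collected in the morning, and the labels give no time for a single mouse. The animal numbers of the CD and HFD males come from separate ranges, so that diet and cohort cannot be told apart. The mice of a diet are called CD 1 to 3 and HFD 1 to 3 below, and these numbers pair no mice.

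The liver takes up fatty acids from food and from fat tissue, and burns, stores or exports them. The nuclear receptor PPAR alpha responds to fatty acids and switches on genes for their oxidation in peroxisomes, microsomes and mitochondria. SREBP1c and carbohydrate signals drive genes for the synthesis and desaturation of fatty acids, and SREBP2 drives those for cholesterol. Hepatocytes also carry a large detoxification programme, make most plasma proteins, and run a circadian clock that is tied to feeding.

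Gene counts summed to between 35534924 and 46252009 in the 6 libraries. Values are given in CPM, counts scaled to a common library size, and differences as fitted log2 differences, HFD minus CD, with their standard error (SE). Libraries of the same diet had correlations of log2 CPM across genes of 0.986 to 0.990, and libraries of different diets 0.977 to 0.984. The first principal component held 41.3% of the variance and separated the diets. The second held 20.2% and ran from CD 1 to CD 3, so that the CD mice differed among themselves as well. The 10 hepatocyte markers checked were all measured, with a summed level of 114240 to 136100 CPM on CD and 79787 to 103400 CPM on HFD. Of the 10, 0 were called, 2 had separate ranges and the median log2 difference was -0.18. Xist, the RNA that silences an X chromosome in females, lay at 0.0534 to 0.413 CPM, and the Y-linked Ddx3y at 40.6 to 51.6 CPM, which matches the male label of all 6. In another group, 129S1/SvImJ female CD, library 1 has sex-linked genes that go against its label, and without it 175 genes were called in DBA/2J males in place of the 157 given next.

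On HFD the livers of DBA/2J males had less mRNA of the fatty acid hydroxylases Cyp4a10 and Cyp4a14, of the peroxisomal enzyme Ehhadh, of acyl-CoA thioesterases and of several detoxification enzymes. They had more mRNA of Fgl1, a secreted liver protein, of the cytokine receptor Lifr and of the oestrogen sulphotransferase Sult1e1. Of 14330 genes, 157 passed an adjusted p of 0.05 in edgeR's quasi-likelihood test, which is 1.10% of all genes. Among them 74 were higher on HFD (0.516%) and 83 lower (0.579%). In 147 of the 157 the 3 HFD libraries lay entirely above or below the 3 CD libraries, which was true of 21.9% of all genes. The median absolute log2 difference of the called genes was 1.40, and 110 of them differed by at least 1, with 49 higher and 61 lower. At an unadjusted p under 0.05 there were 1388 genes. Fits that left out 1 of the 6 libraries called between 60 and 115 genes, with the fewest without CD 2, and the length of the list depends on single mice. In a fit of the 6 libraries alone, which estimates the spread from these mice only, 480 genes were called, 271 higher and 209 lower, and 120 of the 157 were among them.

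**Figure D1:**
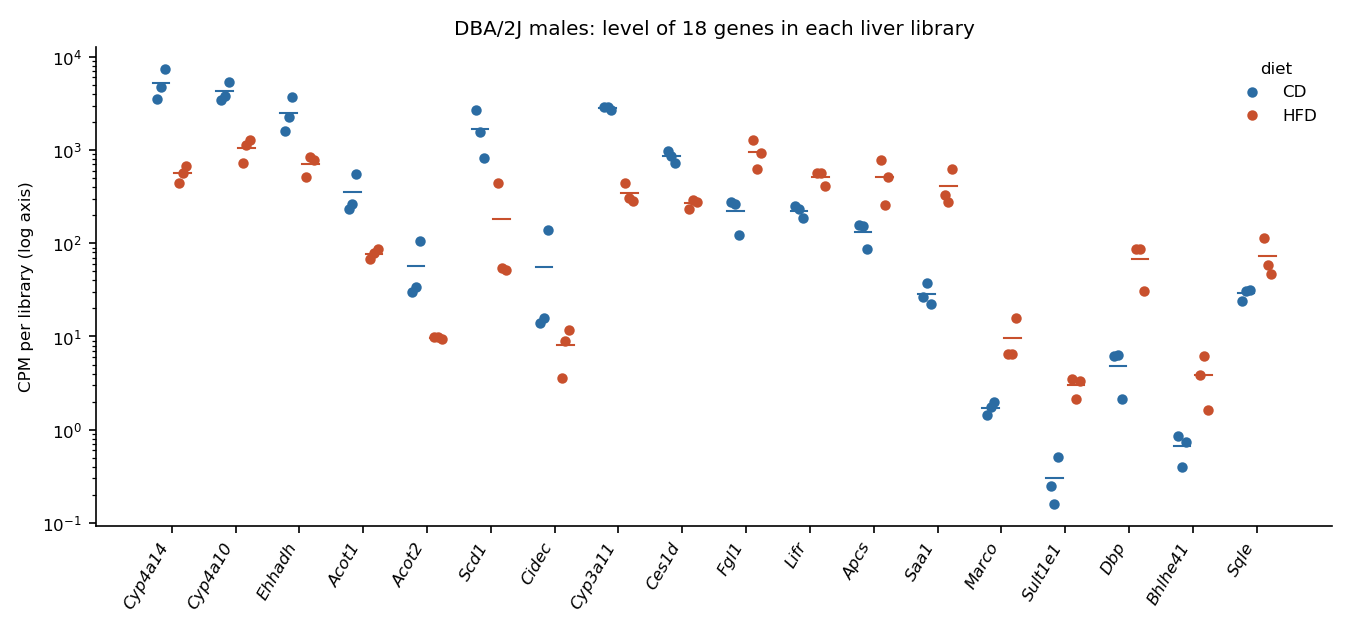
Level of 18 genes in each of the 6 libraries (CPM, log axis), with CD in blue, HFD in orange, 1 point per mouse and a bar at the mean of each diet. The points of the 2 diets do not overlap in any of these genes, and CD 3 stands above the other CD mice for Acot2 and Cidec.

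The called genes of fatty acid oxidation were all lower on HFD. Of 38 members measured, 8 fell and 0 rose, and the background is 0.579% of all genes called lower. The 8 are Cyp4a14, Cyp4a10, Cyp4a31, Ehhadh, Acot1, Acot2, Acot3 and Acot4. The median log2 difference over the 38 members was -0.30, and 35 lay below 0, whereas the median over all genes was -0.00019. None of these 8 is an enzyme of the core mitochondrial spiral: they are microsomal hydroxylases, a peroxisomal enzyme and thioesterases, known as PPAR alpha targets. The list gave 6 to 8 calls in the fits without 1 library, with the fewest without CD 3, and 11 in the 6 libraries alone.

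Cyp4a14 (ENSMUSG00000028715, chromosome 4, 115486200 to 115496142, GRCm38) encodes a hydroxylase of the far end of fatty acids. It measured 3545, 4718 and 7437 CPM in CD 1 to 3 and 439, 569 and 674 CPM in HFD 1 to 3. Every HFD mouse was far below every CD mouse. The log2 difference was -3.22 (SE 0.49, n = 3 each), a level 9.34-fold lower, with an edgeR adjusted p of 4.33e-05. Its neighbour Cyp4a10 (ENSMUSG00000066072, chromosome 4, 115518264 to 115533649), of the same function, measured 3477, 3823 and 5426 CPM in CD 1 to 3 and 720.0, 1143 and 1277 CPM in HFD 1 to 3. The ranges were again separate, with a log2 difference of -2.02 (SE 0.36, adjusted p 0.000438). Cyp4a31, another member of the cluster, fell by 1.71 (adjusted p 0.000297). The Cyp4a genes are close copies, and reads that match several of them can be lost or misplaced.

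Ehhadh (ENSMUSG00000022853, chromosome 16, 21761287 to 21787807) encodes the bifunctional enzyme of peroxisomal beta-oxidation. It measured 1605, 2241 and 3665 CPM in CD 1 to 3 and 516, 832 and 783 CPM in HFD 1 to 3, and the lowest CD mouse was above the highest HFD mouse. The log2 difference was -1.82 (SE 0.35, adjusted p 0.00127). The call was kept in all 6 fits that each left out 1 library, as were those of Cyp4a14, Cyp4a10, Cyp4a31, Acot1 and Acot3.

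The acyl-CoA thioesterases release free fatty acids from their coenzyme A esters, in the cytosol (Acot1), the mitochondria (Acot2) and the peroxisomes (Acot3, Acot4). Acot1 (ENSMUSG00000072949, chromosome 12, 84009490 to 84018371) measured 235, 266 and 552 CPM in CD 1 to 3 and 67.5, 78.5 and 85.8 CPM in HFD 1 to 3, with separate ranges and a log2 difference of -2.18 (SE 0.42, adjusted p 0.00126). Acot2 measured 30.3, 34.1 and 105.7 CPM in CD 1 to 3 and 9.83, 9.83 and 9.45 CPM in HFD 1 to 3. The HFD mice were nearly equal, and CD 3 stood above the other 2 CD mice. Its log2 difference of -2.55 (adjusted p 0.00152) was lost without CD 3, where it was -1.73 (adjusted p 0.1). Acot3 measured 19.5, 14.8 and 8.40 CPM in CD 1 to 3 and 1.80, 0.909 and 1.22 CPM in HFD 1 to 3, with a log2 difference of -3.43 (adjusted p 0.00228) and separate ranges. Acot4 fell by 1.49 (adjusted p 0.0175), and its call was lost without CD 3, HFD 1, HFD 2 or HFD 3, with an adjusted p of up to 0.118. The 4 genes lie side by side, and Acot3 and Acot4 overlap another annotated gene on the same strand, so their counts are uncertain.

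Pdk4, Angptl4, Cpt1a and Fgf21, which PPAR alpha is also known to drive, did not pass the test. Pdk4, a kinase that blocks the use of glucose carbon in mitochondria, measured 24.9, 31.0 and 46.5 CPM in CD 1 to 3 and 3.28, 3.55 and 9.36 CPM in HFD 1 to 3, a log2 difference of -2.66 that missed the threshold (adjusted p 0.061). Angptl4, an inhibitor of lipoprotein lipase, gave -0.91 (adjusted p 0.112). The ranges of both genes were separate. Cpt1a, the gate of mitochondrial fatty acid entry, measured 953, 1007 and 983 CPM in CD 1 to 3 and 817, 993 and 868 CPM in HFD 1 to 3, and its ranges overlapped. Its log2 difference was -0.14, with an interval of -0.54 to 0.27 (95%, adjusted p 0.954). Fgf21, a fasting hormone of the liver, measured 65.4, 159.8 and 259 CPM in CD 1 to 3 and 69.3, 179.8 and 86.1 CPM in HFD 1 to 3, without a call (adjusted p 0.946). 4 further called genes of peroxisomes, acyl groups and retinol were picked out after their values were seen: Pex11a, a peroxisome division protein (-1.12), Pxmp4, a peroxisomal membrane protein (-1.01), Crat, carnitine acetyltransferase (-0.86), and Retsat, retinol saturase (-1.34). The adjusted p-values were 0.0477, 0.00674, 0.0344 and 0.00141. Of these Retsat kept its call in all 6 fits without 1 library, whereas Pex11a and Crat kept it in 1 and Pxmp4 in 4. Without CD 3 the log2 difference of Pex11a was -0.71 (adjusted p 0.5).

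**Figure D2:**
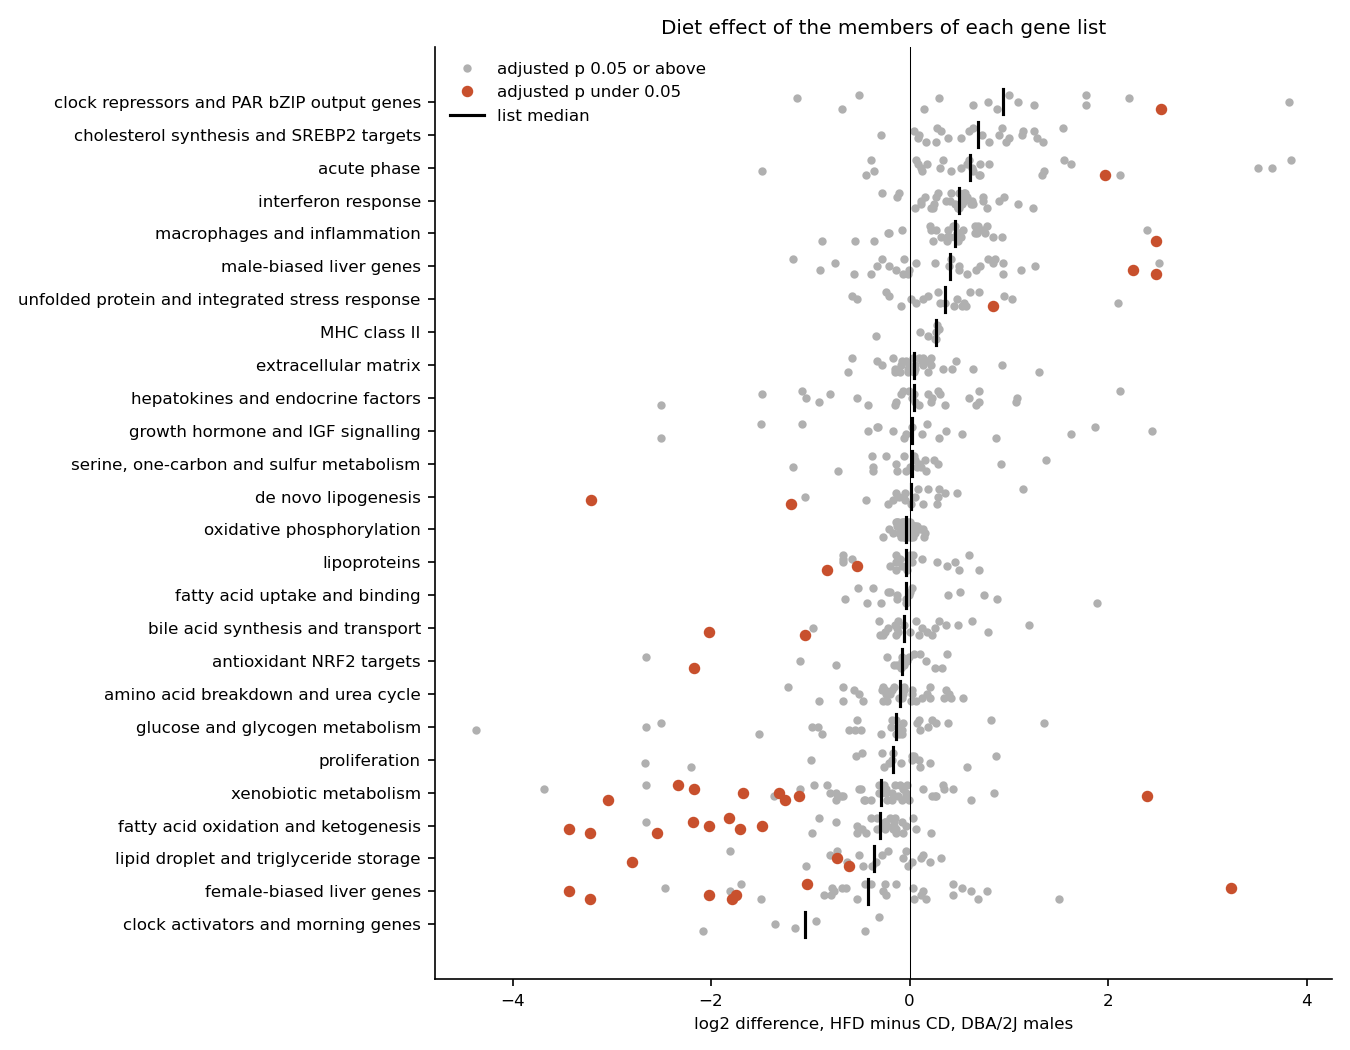
Log2 difference, HFD minus CD, of each measured member of the gene lists in DBA/2J males, with called members in orange, other members in grey and a black bar at the list median. The called members of fatty acid oxidation all lie left of 0, and those of xenobiotic metabolism all do except Ces2b.

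The called lipid droplet genes were lower on HFD. Of 22 members, 3 fell and 0 rose, against the same 0.579%, and the list median was -0.36, with 17 below 0. Cidec, a droplet fusion protein, measured 13.8, 15.9 and 139 CPM in CD 1 to 3 and 3.55, 8.87 and 11.9 CPM in HFD 1 to 3. CD 3 was far above the other CD mice, and without it the log2 difference of -2.80 (adjusted p 0.0173) shrank to -0.88 (adjusted p 0.82). The call was also lost without HFD 1 or HFD 2. Hsd17b13, a droplet dehydrogenase, measured 755, 882 and 987 CPM in CD 1 to 3 and 590.0, 557 and 571 CPM in HFD 1 to 3, with separate ranges and a log2 difference of -0.61 (adjusted p 0.00439), and its call was lost without CD 3 alone (adjusted p 0.0727). Fitm2, a protein of droplet budding, fell by 0.73 (adjusted p 0.0428), a call that was lost without any 1 of the 6 libraries (adjusted p up to 0.351). Without CD 3 the list had 0 calls. Plin2, the main droplet coat protein of hepatocytes, measured 901, 1029 and 2293 CPM in CD 1 to 3 and 855, 1162 and 1031 CPM in HFD 1 to 3, with overlapping ranges and no call (adjusted p 0.819). Plin4, another coat protein, gave -1.81 (adjusted p 0.139). Cidea, Mogat1 and Pnpla3, droplet and triglyceride genes, stayed at or under 1.39 CPM in every one of the 6 libraries, without a call. Cd36, a fatty acid translocase, and Pparg gave -0.04 and 0.05, also without a call.

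Scd1 (ENSMUSG00000037071, chromosome 19, 44394455 to 44407879), which puts a double bond into saturated fatty acids, had the lowest log2 difference of the lipogenesis list. It measured 2694, 1566 and 815 CPM in CD 1 to 3 and 444, 54.1 and 51.6 CPM in HFD 1 to 3. The ranges were separate, but the mice varied widely within both diets, with HFD 1 well above HFD 2 and 3. The log2 difference was -3.21 (SE 0.84, adjusted p 0.0344), and the call was lost without CD 1, CD 2, HFD 2 or HFD 3, with an adjusted p of up to 0.256. Me1, malic enzyme, which makes NADPH for lipid synthesis, measured 80.1, 72.7 and 62.5 CPM in CD 1 to 3 and 31.6, 30.0 and 32.5 CPM in HFD 1 to 3, with a log2 difference of -1.19 (adjusted p 0.00323) that was kept in all 6 fits without 1 library. Of 21 lipogenesis genes these 2 fell and 0 rose, against 0.579% of all genes called lower. Fasn, fatty acid synthase, measured 71.1, 69.0 and 86.6 CPM in CD 1 to 3 and 110.0, 83.5 and 84.7 CPM in HFD 1 to 3, and Srebf1, which encodes SREBP1, 82.0, 66.6 and 55.6 CPM in CD 1 to 3 and 126, 66.4 and 69.0 CPM in HFD 1 to 3. Their ranges overlapped and neither was called (adjusted p 0.918 and 0.892). Elovl6, a fatty acid elongase, gave 0.13 (adjusted p 0.987). In the lipoprotein list of 25 genes 2 fell, against the same 0.579%. Mttp, which loads lipid onto apolipoprotein B, fell by 0.53 (adjusted p 0.0379), and Tm6sf2, a gene of very-low-density lipoprotein export, by 0.83 (adjusted p 0.0121). The call of Mttp was lost without CD 2, CD 3, HFD 1 or HFD 2 (adjusted p up to 0.35), and that of Tm6sf2 without CD 1, CD 2 or HFD 2 (up to 0.156).

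Of 30 glucose and glycogen genes 0 passed the test, 11 lay entirely lower on HFD, against 10.6% of all genes, and 4 entirely higher, against 11.3%. The list had 4 calls with limma and 5 with DESeq2 or in the 6 libraries alone, all lower. G6pc, glucose-6-phosphatase, measured 809.7, 761 and 679.9 CPM in CD 1 to 3 and 254, 332 and 202 CPM in HFD 1 to 3, with a log2 difference of -1.51 (adjusted p 0.0537). Igfbp1, an insulin-repressed binding protein, measured 213, 215 and 308 CPM in CD 1 to 3 and 31.2, 48.7 and 49.96 CPM in HFD 1 to 3, with -2.50 (adjusted p 0.0661). All HFD mice were below all CD mice for both genes. Ppp1r3g, a glycogen-targeting subunit of protein phosphatase 1, measured 18.8, 21.2 and 21.1 CPM in CD 1 to 3 and 0.657, 1.90 and 0.462 CPM in HFD 1 to 3, a log2 difference of -4.37 with an adjusted p of 0.0586. Gm30127, an annotated transcript on the opposite strand of Ppp1r3g that was picked out after its values were seen, gave -4.64 and passed the test (adjusted p 0.0152), a call lost without CD 2, HFD 1, HFD 2 or HFD 3 (adjusted p up to 0.118). Whether the counting used strand is not given in the sources used here, so reads of these 2 genes cannot be told apart.

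Most called detoxification genes were lower on HFD. Of 51 xenobiotic metabolism genes 7 fell and 1 rose, against 0.579% of all genes called lower and 0.516% higher, and the list median was -0.29, with 41 members below 0. The fits without 1 library gave 5 to 7 falls, the 6 libraries alone gave 13, and the test for a log2 difference beyond 0.5 gave 4. The list holds cytochromes P450, carboxylesterases and conjugating enzymes, many of them driven by the receptors CAR and PXR. CYP, carboxylesterase and glutathione transferase genes have close copies, and reads may be split between them.

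Cyp3a11 (ENSMUSG00000056035, chromosome 5, 145854426 to 145879964), the major drug-oxidising P450 of mouse liver, measured 2903, 2895 and 2685 CPM in CD 1 to 3 and 444, 304 and 283 CPM in HFD 1 to 3. The CD mice were within a narrow range, and the HFD mice were all far lower. The mean was 2828 ± 124 CPM on CD and 344 ± 87.4 CPM on HFD (SD, n = 3 each), and the log2 difference was -3.04 (SE 0.42). Its adjusted p of 4.96e-06 was the lowest of the 14330 genes, and it kept its call in all 6 fits without 1 library.

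The carboxylesterase Ces1d (ENSMUSG00000056973, chromosome 8, 93166068 to 93197838), which also hydrolyses stored triglyceride, measured 978, 863 and 727 CPM in CD 1 to 3 and 235, 290.0 and 278 CPM in HFD 1 to 3. Its ranges were separate, with a log2 difference of -1.68 (SE 0.32, adjusted p 0.00114). Ces2a fell by 1.11 (adjusted p 0.000438) and Ces1e by 1.25 (adjusted p 0.00268). The call of Ces1e was lost without HFD 3 (adjusted p 0.0611), and those of Ces1d and Ces2a were kept in all 6 such fits. Ces2b, the 1 member that rose, stayed under 1 CPM in every library, and its call was lost without CD 2, CD 3, HFD 1 or HFD 2 (adjusted p up to 0.179).

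Gsta2, a glutathione transferase, measured 21.5, 16.3 and 13.1 CPM in CD 1 to 3 and 3.16, 5.01 and 3.17 CPM in HFD 1 to 3, a log2 difference of -2.17 (adjusted p 0.00129) with separate ranges. Cyp2c55, an arachidonate-metabolising P450, fell by 2.33 (adjusted p 0.00228), and Cyp2c29 by 1.32 (adjusted p 0.0275). Cyp2c38, which is in no list, fell by 2.37 (adjusted p 0.00674). The calls of Gsta2 and Cyp2c55 were kept in all 6 fits without 1 library. Those of Cyp2c29 and Cyp2c38 were lost without 4 and 3 of the libraries, with adjusted p up to 0.208 and 0.121. Cyp2b10, the classical CAR target, measured 2.44, 1.33 and 14.3 CPM in CD 1 to 3 and 0.316, 0.165 and 0.901 CPM in HFD 1 to 3, and did not pass the test (log2 difference -3.68, adjusted p 0.0509). CD 3 was the highest, and without it the log2 difference was -1.99 (adjusted p 0.674). DESeq2 called it, as did the fits without CD 1 or CD 2. Among 27 bile acid genes 2 fell, against 0.579% of all genes. Abcc3, an export pump of conjugates, measured 415, 344 and 315 CPM in CD 1 to 3 and 199, 171 and 147 CPM in HFD 1 to 3 (log2 difference -1.05, adjusted p 0.00268). Slco1a4, an organic anion importer, fell by 2.02 (adjusted p 0.00401), a call lost without HFD 1 (adjusted p 0.101). Cyp7a1, the rate-limiting enzyme of bile acid synthesis, and Cyp8b1, which sets the share of cholic acid, gave 0.49 and -0.98 without a call (adjusted p 0.974 and 0.119).

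Sex-biased liver genes were followed as their own lists, because male and female livers differ in many P450, sulphotransferase and urinary protein genes under growth hormone control. Of 36 female-biased genes 6 fell and 1 rose, and of 32 male-biased genes 2 rose and 0 fell, against 0.579% of all genes called lower and 0.516% higher. The lists carry the usual bias of mouse liver, which not every gene shows here: on CD the males and females overlapped for Cyp4a14 (means of 5234 and 5552 CPM), Cyp4a10 (4242 and 4002 CPM) and Fmo2 (57.7 and 83.3 CPM). 3 of the 6 falls, Acot3, Cyp4a14 and Cyp4a10, also stand in the fatty acid oxidation list. The others were Fmo2, a flavin monooxygenase (-1.79, adjusted p 0.0253), Cyp2c39, a P450 (-1.74, adjusted p 0.0344), and Trim24, a co-regulator of nuclear receptors (-1.03, adjusted p 0.0161). The calls of all 3 were lost without 4 of the 6 libraries, with adjusted p up to 0.206, 0.335 and 0.186. The count of falls was 3 to 7 over the fits without 1 library, with the most without CD 3.

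The female-biased gene that rose was Sult1e1 (ENSMUSG00000029272, chromosome 5, 87575969 to 87591594), the oestrogen sulphotransferase. It measured 0.246, 0.160 and 0.506 CPM in CD 1 to 3 and 3.48, 2.12 and 3.35 CPM in HFD 1 to 3. Every HFD mouse was well above every CD mouse, at low levels throughout. The log2 difference was 3.24 (SE 0.70, adjusted p 0.0048), lost without CD 2 (adjusted p 0.0636). On the male-biased side Hsd3b2, a hydroxysteroid dehydrogenase, measured 39.9, 42.4 and 16.6 CPM in CD 1 to 3 and 197, 139 and 136 CPM in HFD 1 to 3, a log2 difference of 2.26 (adjusted p 0.0428) that was lost without any 1 of the 6 libraries (adjusted p up to 0.268). Its neighbour Hsd3b5 measured 63.9, 74.2 and 26.6 CPM in CD 1 to 3 and 366, 305 and 269 CPM in HFD 1 to 3, with separate ranges and no call (adjusted p 0.185). Both overlap Zfp697 on the opposite strand. The other call of that list was Mup11, a major urinary protein that carries pheromones, which rose by 2.48 (adjusted p 0.0141). Mup19, a related gene in no list, rose by 2.44 (adjusted p 0.0304). Mup11 measured 1.45, 1.79 and 1.46 CPM in CD 1 to 3 and 4.11, 9.75 and 12.3 CPM in HFD 1 to 3, with HFD 1 lowest among the HFD mice and still above all CD mice. The calls of both Mup genes were kept without HFD 1 and lost without any other library (adjusted p up to 0.0834 and 0.168). The Mup genes are near-identical, so how their reads divide is uncertain. Cyp4a12a, a male P450, measured 639, 662 and 747 CPM in CD 1 to 3 and 672, 702 and 597 CPM in HFD 1 to 3, with overlapping ranges (log2 difference -0.06, adjusted p 0.996).

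Cholesterol synthesis genes lay higher on HFD in 23 of 24 cases, but none passed the test. Of the 24, 0 were called with edgeR, and the list median was 0.69. In 14 of them all HFD mice were above all CD mice, a share to be read against 11.3% of all genes. Sqle, squalene epoxidase, measured 24.2, 30.8 and 31.8 CPM in CD 1 to 3 and 114, 59.1 and 46.2 CPM in HFD 1 to 3 (log2 difference 1.34, adjusted p 0.22). HFD 1 was the highest for Sqle, as it was for Idi1, an isomerase of the isoprenoid steps, at 7.29, 9.96 and 11.4 CPM in CD 1 to 3 and 47.8, 17.3 and 18.4 CPM in HFD 1 to 3. DESeq2 called 1 member, the fit of the 6 libraries alone 2, and the fit without HFD 3 1.

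Most clock genes of opposite phase lay on opposite sides of 0. The clock activators and genes that peak with them were below 0 in 6 of 6 members, with a median of -1.05, and 5 lay entirely lower on HFD, against 10.6% of all genes. Of 16 repressors and output genes 13 lay above 0, with a median of 0.94, 10 lay entirely higher, against 11.3%, and 1 entirely lower. Bhlhe41, a repressor of CLOCK and BMAL1, was the only one to pass edgeR's test, with 0.862, 0.400 and 0.738 CPM in CD 1 to 3 and 3.87, 6.20 and 1.64 CPM in HFD 1 to 3 and a log2 difference of 2.53 (adjusted p 0.016). That call was lost without CD 2, CD 3 or HFD 2 (adjusted p up to 0.166). Dbp, a clock output factor, measured 6.13, 6.35 and 2.11 CPM in CD 1 to 3 and 87.7, 86.8 and 31.1 CPM in HFD 1 to 3, a log2 difference of 3.82 with an adjusted p of 0.0665. CD 3 and HFD 3 were the lowest of their diets. Arntl, which encodes BMAL1, measured 27.4, 23.9 and 25.9 CPM in CD 1 to 3 and 6.64, 6.75 and 16.6 CPM in HFD 1 to 3 and gave -1.36 (adjusted p 0.262), and Nr1d1, which encodes REV-ERB alpha, 34.3, 33.9 and 25.9 CPM in CD 1 to 3 and 102, 149 and 72.4 CPM in HFD 1 to 3 and 1.78 (adjusted p 0.368). The annotated spans of Dbp and Nr1d1 cross those of Sphk2 and Thra, which run the other way. With the spread of the 6 libraries alone, which called 480 of all genes, 8 of the 16 repressors and output genes were called, 7 higher and 1 lower. DESeq2 called 4 of the 16, all higher. In edgeR's fit of the 6 libraries alone the adjusted p was 0.00587 for Dbp and 0.00669 for Nr1d1. The hour at which each liver was taken is not in the labels, and its part in these values was not tested.

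CLOCK and BMAL1 bind the E-box CACGTG, DBP and its relatives bind the D-box TTATGTAA, and the ROR and REV-ERB receptors bind a half-site AGGTCA. RefSeq promoter windows (GRCm38.p6, 250 bases before to 50 after each start) were found for 13 of the 16 repressor and output genes, with 17 windows, and for 5 of the 7 listed activators, with 8. Searched on both strands, the E-box letters stood in 35.3% of the 17 repressor and output windows, 12.5% of the 8 activator windows and 7.15% of all 32851. The D-box letters stood in 5.88%, 0% and 0.938%, and the AGGTCA letters in 11.8%, 37.5% and 16.3%, in the same order. The letters were found in these windows, which says nothing of binding in these livers. Shown are bases from before the RefSeq start of 3 repressor genes, read on the gene's own strand with the motif letters in capitals. Bhlhe41 is the called gene, Ciart has the most E-boxes, and Per3 holds the only D-boxes. Among the genes not shown, the windows of Dbp and Nr1d1, and of some others, hold none of the motif letters. All 250 bases before the start are shown for Per3, whereas the stretches of Bhlhe41 and Ciart end where the GENCODE span of the gene begins.
Bhlhe41, chr6:145865559-145865670, minus strand: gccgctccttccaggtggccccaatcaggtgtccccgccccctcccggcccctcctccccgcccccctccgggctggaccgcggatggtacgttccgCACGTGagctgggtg
Ciart, chr3:95882252-95882478, minus strand: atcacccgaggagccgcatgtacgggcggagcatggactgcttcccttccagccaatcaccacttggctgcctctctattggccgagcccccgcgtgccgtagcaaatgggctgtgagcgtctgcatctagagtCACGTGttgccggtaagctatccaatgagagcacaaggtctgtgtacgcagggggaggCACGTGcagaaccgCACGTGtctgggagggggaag
Per3, chr4:151044666-151044915, minus strand: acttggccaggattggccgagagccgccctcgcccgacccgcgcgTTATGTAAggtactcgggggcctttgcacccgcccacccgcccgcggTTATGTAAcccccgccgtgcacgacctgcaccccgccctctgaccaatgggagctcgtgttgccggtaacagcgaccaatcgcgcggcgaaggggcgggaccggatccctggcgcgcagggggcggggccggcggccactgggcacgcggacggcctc
Per3, a period gene, measured 4.21, 4.73 and 2.22 CPM in CD 1 to 3 and 22.7, 17.5 and 11.3 CPM in HFD 1 to 3 (log2 difference 2.22, adjusted p 0.083), and Ciart, a repressor of the same complex, 0.640, 0.614 and 0.823 CPM in CD 1 to 3 and 2.99, 3.22 and 0.994 CPM in HFD 1 to 3 (1.77, adjusted p 0.617). Both lay entirely higher on HFD without passing the test. Per3 also lies within the span of Camta1 on the same strand.

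Most acute phase genes lay above 0. Of 30 members 1 rose, Apcs, against 0.516% of all genes called higher, 26 lay above 0 and the median was 0.61. In 19 members all HFD mice were above all CD mice, against 11.3% of all genes, and in 2 they were below, against 10.6%. The number of calls was 1 in the fit of all 36 groups, 3 with DESeq2 and 12 in the 6 libraries alone, all higher. That last fit called 480 of the 14330 genes, 271 of them higher. Apcs (ENSMUSG00000026542, chromosome 1, 172893961 to 172895041), serum amyloid P, measured 157, 155 and 85.7 CPM in CD 1 to 3 and 784, 254 and 517 CPM in HFD 1 to 3, with a log2 difference of 1.97 (SE 0.50, adjusted p 0.0249). Its call was kept without HFD 2 and lost without any other 1 of the 6 libraries (adjusted p up to 0.291). Saa1, a serum amyloid A that surges in inflammation, measured 26.8, 37.2 and 22.3 CPM in CD 1 to 3 and 331, 277 and 632 CPM in HFD 1 to 3. Every HFD mouse was far above every CD mouse, yet the adjusted p of the log2 difference of 3.85 was 0.189, and 0.00107 in the 6 libraries alone. Saa2 measured 8.20, 9.82 and 7.85 CPM in CD 1 to 3 and 112, 69.3 and 143 CPM in HFD 1 to 3 (log2 difference 3.65, adjusted p 0.289), and Lcn2, which binds bacterial siderophores, 3.94, 3.28 and 4.33 CPM in CD 1 to 3 and 58.1, 18.5 and 55.6 CPM in HFD 1 to 3 (3.51, adjusted p 0.101). Saa1 and Saa2 are near-identical copies.

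Fgl1 and Lifr rose. Fgl1 (ENSMUSG00000031594, chromosome 8, 41191434 to 41215156), a hepatocyte-secreted fibrinogen-like protein, measured 279, 263 and 122 CPM in CD 1 to 3 and 1269, 629 and 936 CPM in HFD 1 to 3. HFD 1 was the highest, and the lowest HFD mouse was above the highest CD mouse. The log2 difference was 2.09 (SE 0.39, adjusted p 0.00114), 4.26-fold higher. Lifr (ENSMUSG00000054263, chromosome 15, 7090614 to 7197489), the receptor of leukaemia inhibitory factor, which was picked out after its values were seen, measured 251, 235 and 185 CPM in CD 1 to 3 and 567, 571 and 412 CPM in HFD 1 to 3, a log2 difference of 1.21 (SE 0.22, adjusted p 0.000682). Both calls were kept in all 6 fits without 1 library. Xbp1, a factor of the unfolded protein response, rose by 0.84 (adjusted p 0.0415), the only call among 23 stress response genes, against 0.516% of all genes called higher, and kept it in 1 of the 6 fits (adjusted p up to 0.266). Ang, angiogenin, measured 167, 168 and 119 CPM in CD 1 to 3 and 389, 433 and 339 CPM in HFD 1 to 3 (log2 difference 1.36, adjusted p 0.00316), lost without CD 3 (adjusted p 0.0512), and shares its start with Rnase4 on the same strand, so their reads may be split.

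Of 11 Kupffer cell and macrophage markers 1 passed the test, against 0.516% of all genes called higher. All 11 were measured and all 11 had separate ranges with HFD above, against 11.3% of all genes. Their summed level was 421 to 492 CPM on CD and 670 to 760 CPM on HFD. Marco (ENSMUSG00000026390, chromosome 1, 120474538 to 120505024), a scavenger receptor, was the only one called, with 1.43, 1.74 and 2.00 CPM in CD 1 to 3 and 6.47, 6.50 and 15.9 CPM in HFD 1 to 3 (log2 difference 2.48, adjusted p 0.0344). HFD 3 was the highest, and the call was kept only without HFD 2 (adjusted p up to 0.244 without another library). In the 6 libraries alone, where 480 of all genes were called, 6 of the 11 were. Adgre1, which encodes F4/80, measured 13.1, 15.3 and 14.2 CPM in CD 1 to 3 and 20.7, 17.7 and 29.0 CPM in HFD 1 to 3 (log2 difference 0.66, adjusted p 0.378). In pieces of whole liver more cells of a type and more RNA per cell cannot be told apart.

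Other marker sums gave a mixed picture. Markers of white adipose tissue summed to 622 to 959 CPM on CD and 1474 to 1811 CPM on HFD, but most of that was Car3, which liver also makes, at 879, 915 and 463 CPM in CD 1 to 3 and 1785, 1476 and 1437 CPM in HFD 1 to 3. Fabp4 and Lpl are among the 5 of 9 markers measured, and Cidec among them fell. Granulocyte markers summed to 2.38 to 3.48 CPM on CD and 4.32 to 6.96 CPM on HFD, a low level. The sums of endothelial, stellate, cholangiocyte, B cell, T and NK cell and erythroid markers overlapped between the diets. Those of T and NK cells, with 5 of 11 markers measured, were 0.837 to 1.36 CPM on CD and 1.27 to 2.66 CPM on HFD. Their median log2 difference was 0.97, at a low level. None of the 7 kidney markers was measured, and of 12 pancreas markers only Cela1, an elastase. It measured 22.7, 18.2 and 17.3 CPM in CD 1 to 3 and 46.9, 42.3 and 38.7 CPM in HFD 1 to 3, with separate ranges, and rose by 1.14 on the log2 scale (adjusted p 0.0175). Alb, serum albumin, measured 74478, 87888 and 72063 CPM in CD 1 to 3 and 60930.0, 40694 and 38669 CPM in HFD 1 to 3, a log2 difference of -0.74 without a call (adjusted p 0.0843). The part of cell composition in the results above was not tested. Prtn3, a granule protease of myeloid cells, had the highest log2 difference of the named genes called higher, 3.83 (adjusted p 0.0357). But it measured only 0.0985, 0.160 and 0.127 CPM in CD 1 to 3 and 4.26, 0.661 and 0.624 CPM in HFD 1 to 3. Its call was lost without CD 1, CD 2, CD 3 or HFD 1 (adjusted p up to 0.71), and without HFD 1 the log2 difference was 2.31.

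Of the remaining large rises, Slc41a2, a magnesium transporter, measured 8.84, 6.97 and 6.52 CPM in CD 1 to 3 and 50.8, 22.4 and 23.8 CPM in HFD 1 to 3 (log2 difference 2.12, adjusted p 0.000438) and was kept in all 6 fits without 1 library. Adra1d, an adrenergic receptor, measured 0.812, 0.801 and 0.907 CPM in CD 1 to 3 and 3.21, 2.97 and 4.92 CPM in HFD 1 to 3 (2.14, adjusted p 0.0019) and was likewise kept. Wif1, a secreted Wnt inhibitor, measured 0.689, 0.374 and 0.316 CPM in CD 1 to 3 and 1.17, 2.70 and 2.13 CPM in HFD 1 to 3 (2.12, adjusted p 0.00303), also kept. The HFD mice were above all CD mice for each of these 3. Crybb3, a crystallin, Cyp21a1, a steroid hydroxylase, Rbm24, an RNA-binding protein, and Nptx1, a pentraxin, rose by 2.64, 2.96, 2.21 and 2.20, with adjusted p-values of 0.0152, 0.00604, 0.0255 and 0.0425. These 4 lost their call without at least 3 of the 6 libraries (adjusted p up to 0.142, 0.147, 0.23 and 0.528), and HFD 1 was the highest for all 4. Among the remaining large falls, Lrrc15, a membrane protein of leucine-rich repeats, measured 4.19, 3.87 and 4.68 CPM in CD 1 to 3 and 0.438, 0.909 and 0.416 CPM in HFD 1 to 3 (-2.87, adjusted p 0.000404), and Fam209 fell by 2.76 (adjusted p 0.00208). Both calls were kept in all 6 fits without 1 library. Cpne5, a calcium-binding copine, and Myom1, a sarcomere protein, fell by 2.70 and 2.35 (adjusted p 0.00395 and 0.00709). Both were highest in CD 3, and both calls were lost without CD 3 or HFD 1, with log2 differences of -1.31 and -1.44 without CD 3 (adjusted p up to 0.462 and 0.318).

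In 36 interferon response genes 0 passed edgeR's test, although 33 lay above 0 with a median of 0.49. In 13 of them all HFD mice were above all CD mice, against 11.3% of all genes, and in 0 below. DESeq2 called 1 and the fit of the 6 libraries alone 4, all higher. There were also 0 calls among 8 MHC class II genes, 33 extracellular matrix genes, 46 oxidative phosphorylation genes, 19 proliferation genes, 19 fatty acid uptake genes and 34 genes of amino acid breakdown. With 1.10% of all genes called, a count of 0 is near the background for lists of this size. Col1a1, the main fibrous collagen, measured 3.00, 1.68 and 2.03 CPM in CD 1 to 3 and 2.48, 1.54 and 3.14 CPM in HFD 1 to 3 (log2 difference 0.10, interval -0.83 to 1.03, adjusted p 0.994). The median log2 difference of the oxidative phosphorylation list was -0.03. Lepr, the leptin receptor, gave -1.04 (adjusted p 0.857).

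The males were then set beside DBA/2J females of the same age and diets. The animal numbers of the CD and HFD females also come from separate ranges, so diet and cohort cannot be told apart there either. In females 848 genes passed the test (5.92% of all), 483 higher (3.37%) and 365 lower (2.55%). The 2 sexes shared 29 called genes, 28 in the same direction, which are 18.5% of the male calls and 3.42% of the female calls. Of the 74 genes that rose in males 60 (81.1%) also lay above 0 in females, against 58.8% of all genes above 0 in males. Of the 83 that fell 57 (68.7%) lay below 0 in females, against 60.7% of all genes below 0 in males. Ehhadh fell in both sexes (-1.72 in females, adjusted p 0.0019), as did Cyp4a10 (-1.25, adjusted p 0.0235), Cyp4a31 (-1.38, adjusted p 0.002) and Acot1 (-1.60, adjusted p 0.0124). In females 10 of the 24 cholesterol genes and 19 of the 36 interferon genes were called, all higher, against 3.37% of all genes. No gene of these 2 lists had a called difference between the sexes. With 0.244% of all genes called for that difference, a count of 0 is near the background for lists of this size. The list medians were 0.69 in males and 1.01 in females for cholesterol, and 0.49 and 1.15 for interferon.

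The test of the difference itself, males minus females, called 35 genes (0.244%), 15 higher (0.105%) and 20 lower (0.14%). The xenobiotic list held 6 of them, all lower in males: Cyp3a11, Ces1d, Ces1e, Gsta2, Cyp2c55 and Ugt1a9. Cyp3a11 measured 1027, 753 and 825 CPM on CD and 1045, 1058 and 1656 CPM on HFD in females, a log2 difference of 0.53 that was not called (adjusted p 0.431). Its difference between the sexes was -3.57 (SE 0.57, adjusted p 9.01e-05), kept in all 12 fits that each left out 1 DBA/2J library. The list median was -0.29 in males and 0.40 in females. Ces1d (-1.96, adjusted p 0.0246), Ces1e (-1.54, 0.0302), Gsta2 (-2.58, 0.0246), Cyp2c55 (-2.88, 0.0274) and Acot3 (-3.94, 0.0246) also differed. These 5 kept the call in between 3 and 7 of the 12 fits.

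**Figure D3:**
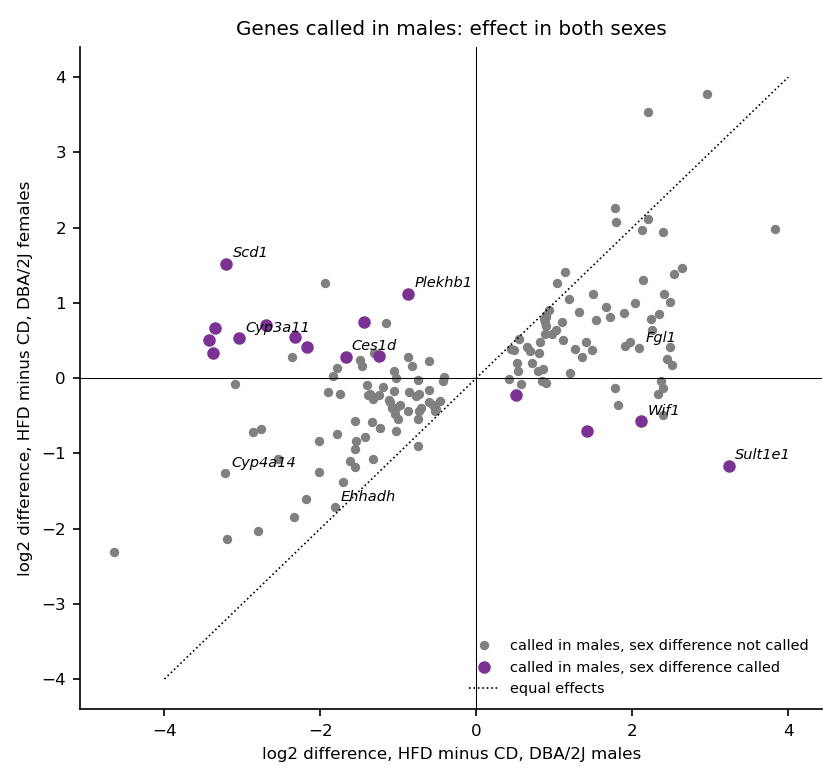
Log2 difference, HFD minus CD, in DBA/2J males (x axis) and females (y axis) of the 157 genes called in males, with the 16 genes whose sex difference was called in purple and a dotted line of equal effects. Cyp3a11 and Scd1 lie at the left above 0 and Sult1e1 at the right below 0, whereas Ehhadh lies near the line.

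Scd1 measured 729, 1417 and 367 CPM on CD and 1001, 5439.7 and 764 CPM on HFD in females, a log2 difference of 1.52 (adjusted p 0.234), and its difference between the sexes was -4.73 (adjusted p 0.0448), kept in 5 of the 12 fits. Sult1e1 measured 2.74, 5.23 and 5.48 CPM on CD and 1.07, 2.00 and 2.90 CPM on HFD in females. On CD the females were above all CD males, and on HFD their range and that of the males overlapped. Its difference between the sexes was 4.41 (adjusted p 0.00778), kept in all 12 fits. Wif1, with 2.69 (adjusted p 0.0113), and Hhip, a Hedgehog inhibitor, with 2.11 (adjusted p 0.00778), were also more positive in males, and kept the call in 9 of the 12 and 12 of the 12 fits. Plekhb1, a membrane-bound signalling protein picked out after its values were seen, fell by 0.88 in males (adjusted p 0.00709) and rose by 1.12 in females (adjusted p 0.000322). The male call was lost without CD 1, CD 2, HFD 1 or HFD 2 (adjusted p up to 0.0975). Its difference of -2.0 had the lowest adjusted p of this comparison, 7.65e-06, and was kept in all 12 fits. Prss8, a serine protease, differed by -2.19 (adjusted p 0.0085). Other called differences came from females: Ugt2b37, a glucuronosyltransferase, fell there by 3.57 (difference 4.38, adjusted p 9.01e-05), and Smad9, a signalling protein of bone morphogenetic proteins, by 4.84 (difference 4.18, adjusted p 0.00686). Sema5b, a semaphorin, rose there by 2.49 (difference -3.04, adjusted p 0.00778). In males these 3 were not called. Reads that aligned to several places made up 25.1% to 29.8% of all reads tallied in the male libraries and 15.6% to 19.4% in the female libraries, and the part of this share in the differences was not tested.

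Against males of C57BL/6J, a strain widely used in diet studies, the difference was called for 429 genes (2.99%), 303 higher (2.11%) and 126 lower (0.879%) in DBA/2J. The count was 102 without C57BL/6J male CD 3 and 989 without C57BL/6J male CD 1, and 204 in the 12 libraries of these males alone, 97 higher and 107 lower. The animal numbers of the CD and HFD males of C57BL/6J also come from separate ranges, and begin with other letters than those of DBA/2J. Diet and cohort cannot be told apart in either strain. Fgl1 measured 757, 715 and 1015 CPM on CD and 221, 219 and 306 CPM on HFD in C57BL/6J males and fell there, so that its difference was 3.83 (SE 0.55, adjusted p 6.66e-06). Saa1 measured 1152, 1339 and 1619.6 CPM on CD and 61.8, 38.4 and 32.2 CPM on HFD in those males, and the diet effect of DBA/2J was higher by 8.80 (adjusted p 0.00715). Their CD mice were above the HFD mice for both genes. Saa2 differed by 8.75 (adjusted p 0.0123) and Lcn2 by 5.63 (adjusted p 0.0238). The fits that left out 1 of these 12 libraries kept all of these calls except that of Lcn2, which was kept in 8 of the 12 fits.

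Single genes of fatty acid and drug metabolism also differed between the 2 strains. Acot3 measured 13.8, 14.04 and 31.9 CPM on CD and 105.7, 128 and 98.4 CPM on HFD in C57BL/6J males, a rise where DBA/2J fell, and the difference was -5.91 (adjusted p 2.79e-05). Ces1d measured 498, 366 and 718 CPM on CD and 1158, 1178 and 1205 CPM on HFD, with a difference of -2.84 (adjusted p 2.79e-05). Slc16a7, a monocarboxylate transporter, differed by -1.56 (adjusted p 7.94e-06), and Abcc3 by -1.63 (adjusted p 0.000774). These 4 calls were kept in all 12 fits. Scd1 measured 1859, 2552 and 4213 CPM on CD and 9554, 5052 and 4643 CPM on HFD there, with a difference of -4.37 (adjusted p 0.0231) kept in 7 of the 12 fits. Cyp3a11 had a log2 difference of -1.09 in C57BL/6J males without a call there, and differed by -1.95 (adjusted p 0.035), kept in 4 of the 12 fits. Moxd1, a monooxygenase-like protein (6.70), Asns, asparagine synthetase (4.72), Mup11 (4.48), Hamp2, a hepcidin copy (-5.13), Cyp2c38 (-4.17), Cyp2a5, a coumarin hydroxylase (-3.89), and Abcd2, a peroxisomal fatty acid transporter (-3.40), had the highest and lowest differences with these. Their adjusted p-values lay between 7.94e-06 and 0.017. The call of Abcd2 was kept in 9 of the 12 fits and lost without DBA/2J male CD 1, CD 2 or HFD 2 (adjusted p up to 0.0732), and those of the other 6 were kept in all 12.

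Against the mean of the males of the 8 other strains, 13 genes differed (0.0907%), 10 higher (0.0698%) and 3 lower (0.0209%) in DBA/2J. The comparison rests on 46 libraries of the other strains, among them a single HFD male of NZO/HlLtJ. DESeq2 called 38, and the fits without 1 DBA/2J male library 3 to 21. Fgl1 had a mean log2 difference of -0.38 over the other strains, against 2.09 in DBA/2J, a difference of 2.47 (SE 0.42, adjusted p 0.00155). It was lower on HFD in 3 of the 8 and higher in 5, where it never exceeded 0.31. Lifr differed by 1.29 (adjusted p 0.00303), a call lost only without CD 3. Cyp4a14 was lower on HFD in 7 of the 8 other strains, with a mean of -0.73, and the difference of DBA/2J from that mean was -2.49 (adjusted p 0.0124). That call was kept in 3 of the 6 fits and lost without CD 3, HFD 1 or HFD 2 (adjusted p up to 0.187).

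**Figure D4:**
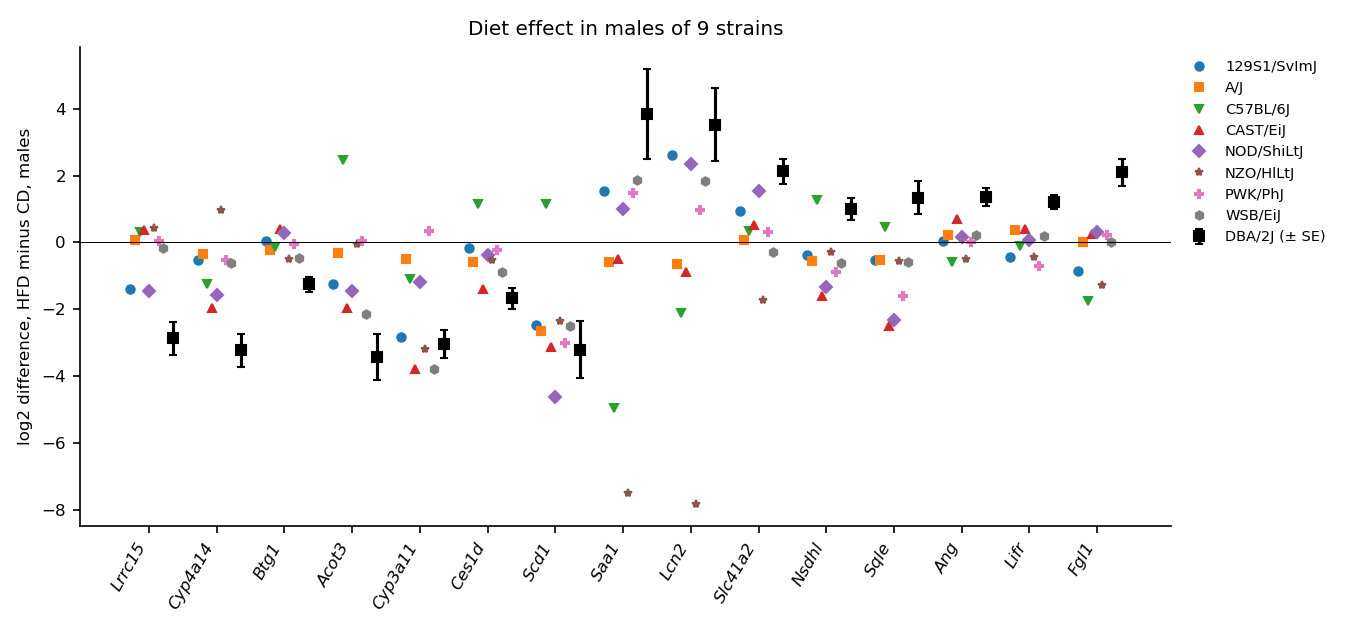
Log2 difference, HFD minus CD, of 15 genes in males of 9 strains, with 1 symbol per strain and DBA/2J as a black square with its SE. DBA/2J lies above all 8 other strains for Fgl1, Lifr and Sqle and below them for Cyp4a14 and Lrrc15, whereas for Scd1 and Cyp3a11 it lies within their range.

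Sqle and Nsdhl, a dehydrogenase of the same cholesterol pathway, differed by 2.36 and 1.55 (adjusted p 0.0373 and 0.0373). Sqle was lower on HFD in 7 of the 8 other strains, with a mean of -1.02, and higher in DBA/2J without a call of its own. Nsdhl was also lower in 7 of the 8, with a mean of -0.55. In C57BL/6J males, however, Nsdhl rose by 1.28 (adjusted p 0.00533), against 1.00 in DBA/2J males (adjusted p 0.136). Its difference between these 2 strains was -0.28, without a call (adjusted p 0.844). Against the mean, Sqle and Nsdhl each kept the call in 1 of 6 fits without 1 DBA/2J male library. Lrrc15 (-2.64, adjusted p 0.0124), Btg1, an anti-proliferative factor (-1.17, 0.0159), Slc41a2 (1.90, 0.0155), Ang (1.32, 0.0373) and Crybb3 (3.10, 0.034) also differed, and kept the call in 3, 3, 3, 1 and 1 of the 6 fits. Crybb3 was higher on HFD in 5 of the 8 other strains. Its mean over them of -0.47 includes -5.37 from NZO/HlLtJ, with its single HFD male. Gm30551, an annotated gene, differed by 2.38 (adjusted p 0.0031), kept in all 6 fits. Scd1 was lower on HFD in 7 of the 8 other strains, with a mean of -2.45, and its difference from them was not called (adjusted p 0.997). The 74 genes that rose in DBA/2J males lay above 0 in 91.9% of cases in NOD/ShiLtJ males and 51.4% in PWK/PhJ males, against 59.8% and 48.2% of all genes above 0 in DBA/2J males. The 83 that fell lay below 0 in 91.6% of cases in A/J males and 54.2% in PWK/PhJ males, against 58.9% and 49.1%. By its 157 calls the DBA/2J male pair ranked 9 of the 18 strain and sex pairs, between 4 calls in A/J males and 2392 in PWK/PhJ females.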

How the data were processed

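Liver mRNA libraries were made with a SMARTER kit, per the labels' protocols, and STAR 2.73a, FastQC and edgeR 3.24.3 are named in the submitters' processing notes. The authors deposited whole read counts per Ensembl gene, although the table is named for normalized values. The counter, its strand setting and the genome build are not given in the sources used here. The 3 lines that name no gene were left out: in the DBA/2J male libraries reads aligned to several places made up 25.1% to 29.8% of all reads tallied, ambiguous reads 5.00% to 5.53% and reads outside genes 4.84% to 6.23%. GENCODE M21 named 14327 of the 14330 genes.

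Counts were scaled by TMM and tested with edgeR 4.0.16 (R 4.3.3, quasi-likelihood) in 1 fit of 36 strain, sex and diet groups from 106 libraries, with 70 residual degrees of freedom. Benjamini-Hochberg adjustment ran over all genes, with a threshold of 0.05. Replicates are separate mice. The p-values rest on a spread between mice that is estimated per gene and shared by all 36 groups, not on the DBA/2J males only. Differences between sexes and strains were contrasts of that fit. limma 3.58.1, DESeq2 1.42.0, other scalings and filters, fits of fewer libraries and leaving out libraries were alternatives. On simulated counts for the male comparison, 73% of genes changed by a log2 size of 1 and 94% of those changed by 2 were recovered, and 6.7% of the calls were false. The changed genes all passed a minimum mean count, and counts were drawn with the spread per gene that all groups share. Recovery below that count, or with a spread that differs between groups, was not tested.

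Genes named are a fixed panel, up to 5 members of each list by p, and called genes picked by log2 difference. The last are the 14 highest rises and 14 lowest falls with separate ranges, and up to 6 highest and 6 lowest of each difference. They had a mean of at least 1 CPM in a DBA/2J male diet group. Gm-numbered genes, Rik clones, pseudogenes and segments of immunoglobulin or T cell receptor genes could not be picked this way. Alb, Car3, Cela1, Ugt1a9, Ciart, Acot4, Ces1e, Ces2b, Cyp2c29, Cyp2c39, Fmo2, Lifr, Slc16a7, Plekhb1, Prss8, Pex11a, Pxmp4, Crat, Retsat, Gm30551, 3110082I17Rik, Zkscan5 and Gm30127 lie outside that rule and were chosen after their values were seen. Values of 2 panel genes are left out here. The comparison, the members and the lists were chosen with earlier results of these data known.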

Additional observations from a re-analysis of the deposited data

Results flagged for a closer look

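The genes below had a called difference between the diet effect of DBA/2J males and that of another group, each given as a log2 difference of effects from edgeR's fit. Against DBA/2J females the male effect was lower for Cyp3a11 (-3.57), Scd1 (-4.73), Acot3 (-3.94), Gsta2 (-2.58), Ces1d (-1.96), Ces1e (-1.54), Cyp2c55 (-2.88), Plekhb1 (-2.0), Prss8 (-2.19), Sema5b (-3.04) and Cpne5 (-3.41). It was higher for Sult1e1 (4.41), Wif1 (2.69), Hhip (2.11), Ugt2b37 (4.38), Smad9 (4.18) and Mup18 (3.08). The call of Cpne5 was kept in 3 of the 12 fits that each left out 1 DBA/2J library, and without male CD 3 the difference was -2.03 (adjusted p 0.327). That of Mup18 was kept in 4 of the 12 (adjusted p up to 0.239).

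Against C57BL/6J males it was higher for Saa1 (8.80), Saa2 (8.75), Moxd1 (6.70), Lcn2 (5.63), Asns (4.72), Mup11 (4.48) and Fgl1 (3.83). It was lower for Acot3 (-5.91), Hamp2 (-5.13), Scd1 (-4.37), Cyp2c38 (-4.17), Cyp2a5 (-3.89), Abcd2 (-3.40), Ces1d (-2.84), Cyp3a11 (-1.95), Abcc3 (-1.63) and Slc16a7 (-1.56).

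Against the mean of the males of the 8 other strains it was lower for Lrrc15 (-2.64), Cyp4a14 (-2.49) and Btg1 (-1.17). It was higher for Crybb3 (3.10), Fgl1 (2.47), Gm30551 (2.38), Sqle (2.36), Slc41a2 (1.90), Nsdhl (1.55), 3110082I17Rik (1.39), Ang (1.32), Lifr (1.29) and Zkscan5 (0.61). The call of 3110082I17Rik was kept in 2 of the 6 fits without 1 DBA/2J male library, and without HFD 1 the difference was 0.88 (adjusted p 0.655). That of Zkscan5 was kept in 1 of the 6 (adjusted p up to 0.521).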

How the results depend on the processing

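The 157 genes called in DBA/2J males became 36 (12 higher, 24 lower) when tested against a log2 difference of 0.5, 480 in the 6 libraries alone and 343 in the 12 DBA/2J libraries alone, of which 36, 120 and 125 were among the 157. Leaving out 1 library gave 60 to 175 calls, the highest without 129S1/SvImJ female CD 1, whose sex-linked genes go against its label (an alternative chosen after seeing the data). The 35 differences from females became 76 in the 12 DBA/2J libraries alone and 8 to 52 without 1 library, with the fewest without female CD 3. The 429 differences from C57BL/6J males became 204 in the 12 male libraries alone and 102 to 989 without 1 library, with the fewest and the most without C57BL/6J male CD 3 and CD 1. The 13 differences from the other strains became 38 with DESeq2 and 3 to 21 without 1 library, with the fewest and the most without HFD 1 and HFD 3. Plin2 changed sign without CD 3 (log2 difference -0.71 to 0.073 without 1 library) and Srebf1 without HFD 1 (-0.0062 to 0.52), and neither was called. Of 65 named called genes, which leave out Cela1, Gm30551, 3110082I17Rik and Zkscan5, 24 kept the call without any 1 of the 6 libraries, and Fitm2 and Hsd3b2 lost it each time. The cause of these changes was not tested. No paired analysis was possible because the replicate numbers follow accession order only.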
